A study of Mus musculus with 6 samples.

Results

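Galectins are small lectins that bind galactose-containing sugars on glycoproteins and glycolipids. Cells make them in the cytosol and export them without a signal peptide, so that they act both inside the cell and as cross-linkers of glycoproteins outside it. They are grouped by their carbohydrate-recognition domains into prototype galectins with a single domain, tandem-repeat galectins with a pair of linked domains, and galectin-3, a chimera with a collagen-like tail. Galectin-3-binding protein, the product of Lgals3bp, is not a galectin but a heavily glycosylated secreted protein with a scavenger-receptor domain, which galectins bind. Lgals9 and Lgals3bp are known in other cells as genes that interferons can induce.

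The genes described are the 7 galectins Lgals1, Lgals2, Lgals3, Lgals4, Lgals7, Lgals8 and Lgals9, together with Lgals3bp, which makes 8 of the 55631 gene rows in the table. They were taken by symbol, through the mouse Ensembl gene ID of each row, and were listed with the values of the same KO against control comparison already known. Their differences between the groups are therefore given as a description and without a p-value. All 8 genes were above 0 in every library. Levels are given as FPKM, fragments scaled by gene length and by the size of the library. Of the 8, 7 averaged 1 FPKM or more across the 6 libraries and so were among the 14714 genes in the fit. Lgals2 was below this level.

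RNA was sequenced from palatal shelves, the folds of the embryonic upper jaw that form the roof of the mouth, dissected from E14.5 mouse embryos. The 3 KO libraries came from embryos with loxP-flanked alleles of the p130Cas gene Bcar1 and a CAG-Cre transgene (p130Casfl/fl; CAG-Cre). The 3 control libraries, titled WT, came from embryos with the same loxP-flanked alleles and no Cre in their label (p130Casfl/fl). The series asks which transcripts differ when p130Cas is lost, an adaptor that carries signals from integrins. CAG is a promoter active in most cell types, so the Cre label names no single cell type. All KO libraries and no control library carry the Cre label, so Cre and the loss of p130Cas cannot be told apart here. Litters are not named in the labels, and p-values cover only the spread among these 6 samples, part of which may be technical.

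Bcar1 had 1.69, 1.69 and 1.31 FPKM in KO replicates 1 to 3, against 1.80, 1.97 and 2.09 FPKM in control replicates 1 to 3. Its log2 fold change was -0.21 ± 0.11 (SE) and it was not called lower in limma, so the loss of p130Cas rests on the labels. The whole-gene value can include exons outside the loxP sites, which was not tested. Between 21500 and 21869 genes were above 0 in a library, and the read depth is unknown. KO replicate 2 was the only library with Xist RNA, at 61.0 FPKM, and the only one with the Y-linked gene Ddx3y at 0, so it differed in sex from the other 5 libraries. All 10 palatal mesenchyme markers looked up were above 0, and their FPKM summed to between 580.4 and 711 in KO and between 597 and 639 in control libraries. Other marker lists varied more, with 0 markers called in each. Cartilage markers summed to 621, 121 and 106 FPKM in KO replicates 1 to 3, against 277, 242 and 520.3 FPKM in control replicates 1 to 3, and their median log2 fold change was -0.75. All 10 endothelial markers had a log2 fold change below 0, with a median of -0.17, and 4 lay lower in all KO libraries, beside 5.79% of all tested genes. All 10 skeletal muscle markers were below 0 as well, with a median of -0.21. The part of these contents in the members' values was not tested. Over all tested genes, 48 were called higher and 1 lower in KO (limma, adjusted p under 0.05), and 4.01% had an unadjusted p under 0.05.

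The KO shelves held more RNA of Lgals9 and Lgals3bp, and for each of the other galectins the KO and control libraries overlapped. Lgals3bp had 17.2 ± 3.07 FPKM in KO and 4.01 ± 0.432 FPKM in control libraries, and Lgals9 had 21.0 ± 0.727 FPKM in KO and 9.92 ± 0.390 FPKM in control libraries (SD, n = 3 each). In the fit over all genes 2 of the 7 tested members were called higher in KO, 0 were called lower and 5 did not pass, beside 0.326% of all tested genes called higher and 0.0068% called lower. For the same 2 genes all KO libraries lay above all control libraries, beside 3.27% of all tested genes. Both shares stand beside a choice of genes made with this comparison known, so nothing is read from them. The median log2 fold change over the 7 tested members was 0.0030, beside -0.02 over all tested genes. In a bulk sample, more RNA per cell and more cells of a type that carries the RNA cannot be told apart.

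**Figure D1:**
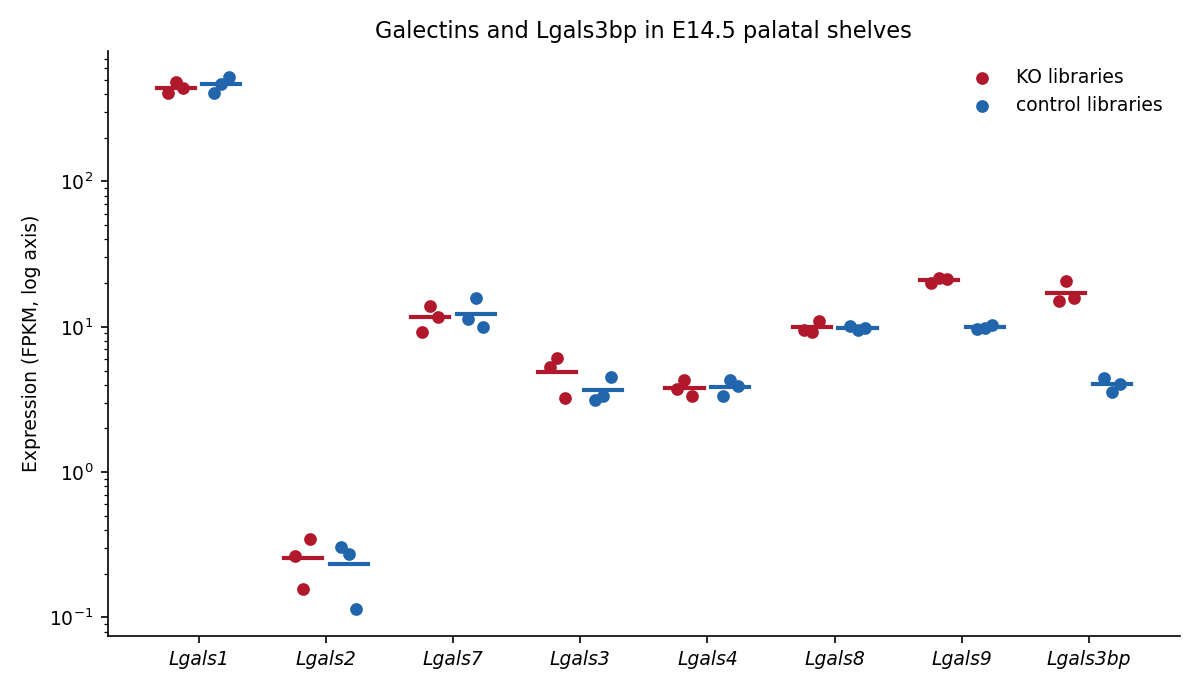
Expression of each gene in FPKM on a log axis, with 1 point per library and a line at the mean of the 3 libraries of a group, KO left of control. Lgals9 and Lgals3bp are the genes whose KO and control points do not overlap, and Lgals1 lies above all others in both groups.

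Lgals3bp (ENSMUSG00000033880) occupies positions 118392751 to 118402092 of chromosome 11 (GRCm38, minus strand), with 6 merged exons in the GENCODE annotation. It had 14.9, 20.7 and 15.9 FPKM in KO replicates 1 to 3, against 4.41, 3.55 and 4.07 FPKM in control replicates 1 to 3. The KO libraries were all far above the control libraries, and KO replicate 2 was the highest. The lowest KO value was 3.39 times the highest control value, and the ratio of the means was 4.28. On the log2(FPKM + 1) scale the fold change was 1.85 ± 0.13 (SE), and 0.109% of tested genes had one as high or higher. Among the 48 genes called higher in KO it ranked 14 by fold change. Lgals3bp was listed with this comparison known, so nothing is read from this share or rank. Without KO replicate 2 the log2 fold change was 1.71.

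Lgals9 (ENSMUSG00000001123), a tandem-repeat galectin known as a ligand of the T cell receptor Tim-3, occupies positions 78962974 to 78984946 of the same chromosome (minus strand), with 11 merged exons. It is 39407.8 kb away from Lgals3bp. Lgals9 had 20.1, 21.6 and 21.2 FPKM in KO replicates 1 to 3, against 9.59, 9.81 and 10.3 FPKM in control replicates 1 to 3. The values were close to each other within each group, and the groups did not overlap. On the log2(FPKM + 1) scale the fold change was 1.01 ± 0.06 (SE), the ratio of the means was 2.11, and 0.387% of tested genes had a fold change as high or higher. It ranked 39 by fold change among the 48 genes called higher. As with Lgals3bp, nothing is read from this share or rank. Without KO replicate 2 the log2 fold change was 0.99.

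Genes next to these members were then looked at. Within 100 kb of Lgals3bp, the tested genes Timp2, Cant1, C1qtnf1 and Engase had log2 fold changes between -0.08 and 0.07, and 0 of the 4 were called (limma, with 0 at an unadjusted p under 0.05). The 1 tested gene within 100 kb of Lgals9 was Ksr1, with a log2 fold change of -0.03 ± 0.09 (SE), and it did not pass. These neighbours were looked up after the values of the members had been seen.

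The promoters of Lgals9 and Lgals3bp are shown because these are the members called higher in KO. RefSeq promoter sequences on GRCm38.p6, from 250 bases before to 50 bases after the annotated start, were at hand for 7 of the 8 members, and Lgals1 is the one without. Motifs of interferon signalling were searched on both strands, and were chosen after the sequences had been seen. They were GAAANNGAAA, the core of the interferon-stimulated response element, and AANNGAAA, the shorter core bound by IRF factors and contained in the longer motif. Capitals mark the match in each stretch of 30 bases, written in the direction of the gene.
Lgals9 upstream of the start: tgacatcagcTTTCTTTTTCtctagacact
Lgals9 downstream of the start: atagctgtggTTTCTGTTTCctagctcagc
Lgals3bp near the RefSeq start: tgttttctgaaAATCGAAActaggtgaggt

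Lgals9 held 2 matches to GAAANNGAAA, both on the strand opposite to the gene, which is why they read as the reverse complement. The upstream stretch is chr11:78984960-78984989, minus strand, with the match at -55 to -46 counted from the RefSeq start at +1. The downstream stretch is chr11:78984890-78984919, with the match at +16 to +25, inside the transcribed part. Of 32851 RefSeq promoters of the same length, 3.44% held at least 1 match. Lgals9 held 3 matches to AANNGAAA, of which 2 lie inside the longer matches, and Lgals3bp held 1, at -14 to -7 in chr11:118401955-118401984, minus strand. The start of Lgals3bp differs between the annotations: the GENCODE gene begins 133 bases upstream of the RefSeq start, so the match lies upstream of the RefSeq start but inside a GENCODE exon. For Lgals9 the GENCODE gene begins 22 bases upstream of the RefSeq start, and the upstream match lies outside both. This shorter motif was present in 23.9% of all promoters. The promoters of Lgals2, Lgals3, Lgals4, Lgals7 and Lgals8 held 0 matches to either motif. A match is a stretch of letters and not a measured binding site.

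Lgals1 (ENSMUSG00000068220), the prototype galectin-1 that is abundant in mesenchyme and developing muscle, was the most abundant galectin transcript of the shelves in every library. It had 405, 480.3 and 439.7 FPKM in KO replicates 1 to 3, against 408, 469.6 and 521 FPKM in control replicates 1 to 3. The groups overlapped, and the log2 fold change was -0.07 ± 0.11 (SE). The 10 skeletal muscle markers summed to 346, 504 and 378 FPKM in KO replicates 1 to 3, against 341, 514 and 602 FPKM in control replicates 1 to 3. Within each group the order of the libraries was the same for Lgals1 and for this sum. The palatal mesenchyme markers summed to 611, 580.4 and 711 FPKM in KO replicates 1 to 3. In control replicates 1 to 3 they summed to 637, 639 and 597 FPKM, and in neither group was their order that of Lgals1. The part of muscle or mesenchyme content in the Lgals1 values was not tested. Between 99.2% and 99.3% of the tested genes lay below Lgals1 in FPKM, in KO and in control libraries alike. Lgals1 occupies positions 78926725 to 78930465 of chromosome 15 (plus strand).

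Lgals2 (ENSMUSG00000043501), a prototype galectin known from the gut, stands 71.2 kb from Lgals1, at positions 78850860 to 78855529 of chromosome 15 (minus strand). Its level was low, at 0.266, 0.157 and 0.346 FPKM in KO replicates 1 to 3, against 0.308, 0.275 and 0.114 FPKM in control replicates 1 to 3. These values are close to the smallest values above 0 in the libraries, which were at most 0.118 FPKM. An exon of Cdc42ep1, on the opposite strand, overlaps an exon of Lgals2 and had 12.3 FPKM in KO and 13.1 FPKM in control libraries on average. The strand setting of the counting is not given in the sources used here, so reads of the pair cannot be told apart.

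Lgals7 (ENSMUSG00000053522), a prototype galectin of stratified epithelia, had 9.20, 13.9 and 11.8 FPKM in KO replicates 1 to 3, against 11.3, 15.7 and 9.93 FPKM in control replicates 1 to 3. The KO values lay within or just below the range of the controls, and the log2 fold change was -0.07 ± 0.18 (SE). Over the alternatives it ran from -0.35 with library weights to 0.10 without control replicate 2. The FPKM of 16 epithelial markers, among them Krt5, Krt14 and Trp63, summed to 689.6, 1012 and 562 in KO replicates 1 to 3, against 739, 823 and 661 in control replicates 1 to 3. In controls the order of the libraries was the same for Lgals7 and for this sum, and among KO libraries replicate 2 was the highest in both. The part of epithelial content in these values was not tested.

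Lgals3 (ENSMUSG00000050335), the chimera galectin known as the macrophage antigen Mac-2 and found in epithelia as well, occupies positions 47367751 to 47386160 of chromosome 14 (plus strand). It had 5.25, 6.07 and 3.25 FPKM in KO replicates 1 to 3, against 3.14, 3.36 and 4.52 FPKM in control replicates 1 to 3. KO replicates 1 and 2 were above all controls and KO replicate 3 was among them, so the groups overlapped. The log2 fold change was 0.31 ± 0.20 (SE). It was 0.15 without KO replicate 2 and 0.52 without KO replicate 3. The ratio of Lgals3bp to Lgals3 in FPKM was 2.85, 3.40 and 4.88 in KO replicates 1 to 3, against 1.40, 1.06 and 0.901 in control replicates 1 to 3.

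Lgals4 (ENSMUSG00000053964), a tandem-repeat galectin of the gut lining, lies 22.1 kb from Lgals7 on chromosome 7. Lgals4 runs from 28833854 to 28841708 and Lgals7 from 28863853 to 28866284, both on the plus strand. Lgals4 had 3.76, 4.30 and 3.34 FPKM in KO replicates 1 to 3, against 3.33, 4.29 and 3.90 FPKM in control replicates 1 to 3. The ranges of the groups were nearly the same, with a log2 fold change of -0.01 ± 0.11 (SE). The list of other galectins included Lgals6, a close relative of Lgals4 in some mouse strains, which matched no gene ID here.

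Lgals8 (ENSMUSG00000057554), a tandem-repeat galectin that marks damaged vesicles for autophagy, occupies positions 12439415 to 12464944 of chromosome 13 (minus strand). It had 9.56, 9.15 and 11.0 FPKM in KO replicates 1 to 3, against 10.2, 9.51 and 9.87 FPKM in control replicates 1 to 3. The controls lay inside the range of the KO libraries, and the log2 fold change was 0.0030 ± 0.08 (SE). An exon of Heatr1 on the opposite strand overlaps an exon of Lgals8, and Heatr1 averaged 8.33 FPKM in KO and 8.39 FPKM in control libraries.

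In the order of mean FPKM, Lgals9 came directly after Lgals1 in KO and after Lgals7 in control libraries. In KO libraries the means ran from Lgals1 through Lgals9, Lgals7, Lgals8, Lgals3 and Lgals4 to Lgals2, with Lgals3bp between Lgals9 and Lgals7. In control libraries they ran from Lgals1 through Lgals7, Lgals9, Lgals8, Lgals4 and Lgals3 to Lgals2, with Lgals3bp between Lgals8 and Lgals4. Neighbours whose libraries overlapped were Lgals9 with Lgals3bp, Lgals7 with Lgals8, and Lgals3 with Lgals4 in KO. In controls they were Lgals7 with Lgals9, Lgals9 with Lgals8, Lgals3bp with Lgals4, and Lgals4 with Lgals3.

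Lgals1 made up between 89.4% and 89.7% of the summed galectin FPKM in KO libraries and between 91.5% and 93.1% in control libraries. Without Lgals1, the other galectins summed to 48.2, 55.1 and 50.8 FPKM in KO replicates 1 to 3, against 37.8, 43.0 and 38.7 FPKM in control replicates 1 to 3. Lgals9 was between 39.1% and 41.8% of this remainder in KO and between 22.8% and 26.8% in control libraries. All KO sums lay above all control sums, with Lgals9 as the member that did not overlap.

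**Figure D2:**
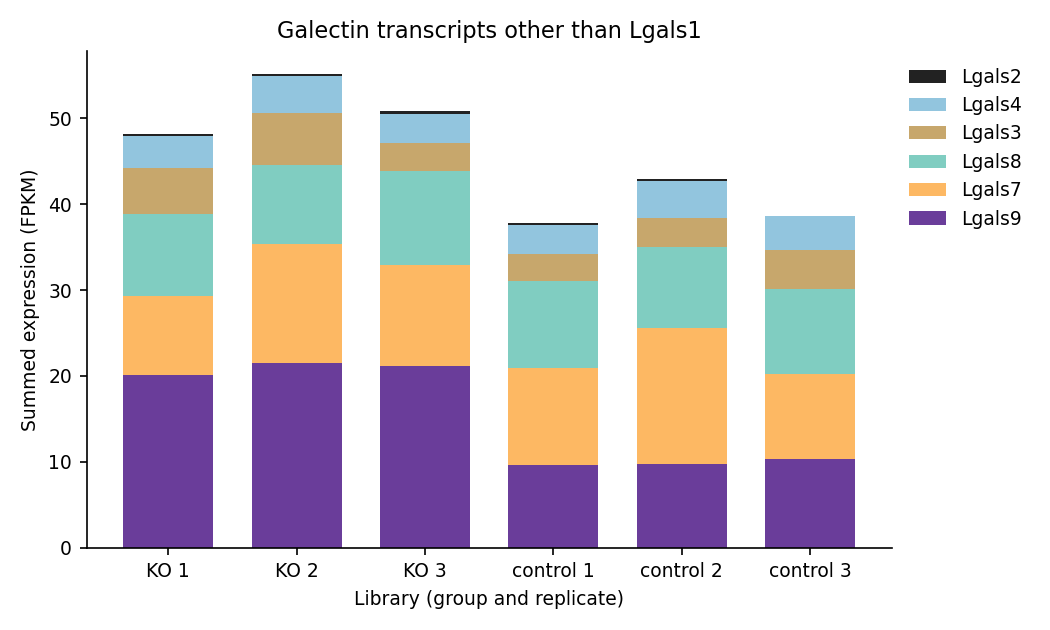
Summed FPKM of the galectins other than Lgals1 in each library, stacked by gene, with KO libraries on the left. The sums lie between 48.2 and 55.1 FPKM in KO and between 37.8 and 43.0 FPKM in control libraries, and Lgals9, the bottom segment, is the one that differs most.

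The genes with the profile most like that of each of the called members were found by the root-mean-square distance between centred log2(FPKM + 1) profiles over the 6 libraries. For Lgals3bp the nearest 5 were Oas1a, at a distance of 0.12, Rsad2 at 0.13, Oas1g at 0.13, H2-D1 at 0.19 and Irgm1 at 0.20. Nearness holds on this scale, where the pseudocount of 1 understates fold changes of low genes. The KO over control ratio of the means was 12.5 for Oas1a, 16.1 for Rsad2 and 12.0 for Oas1g, against 4.28 for Lgals3bp. For H2-D1 and Irgm1 it was 5.15 and 3.84. Oas1a, a sensor enzyme of double-stranded RNA, had 3.61, 5.94 and 4.56 FPKM in KO replicates 1 to 3, against 0.413, 0.340 and 0.374 FPKM in control replicates 1 to 3. Rsad2, the antiviral enzyme viperin, had 2.49, 4.50 and 3.17 FPKM in KO, against 0.156, 0.256 and 0.221 FPKM in control replicates 1 to 3. As in Lgals3bp, KO replicate 2 was the highest library for both, and a shared order of libraries is part of how these genes were chosen. Reads of Oas1 and H2 genes can be shared with close paralogues, which makes these values uncertain.

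For Lgals9 the nearest were Ddx58 at a distance of 0.06, Dtx3l at 0.07, Slfn2 at 0.08, Trim30a at 0.09 and Parp10 at 0.10. In the same order, their ratios of the means were 2.36, 2.93, 2.53, 3.91 and 3.33, against 2.11 for Lgals9. Ddx58, which encodes the viral RNA sensor RIG-I, had 7.37, 7.08 and 7.95 FPKM in KO replicates 1 to 3, against 2.99, 3.26 and 3.24 FPKM in control replicates 1 to 3. Dtx3l, a ubiquitin ligase that partners Parp9, had 3.32, 4.14 and 3.76 FPKM in KO, against 1.34, 1.24 and 1.26 FPKM in control replicates 1 to 3. All 10 nearest genes were called higher in KO (limma, adjusted p between 0.00145 and 0.0168), which is part of what makes a profile near. The distance between Lgals3bp and Lgals9 themselves was 0.44, with 37 genes nearer to Lgals3bp than Lgals9 was and 693 genes nearer to Lgals9 than Lgals3bp was.

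**Figure D3:**
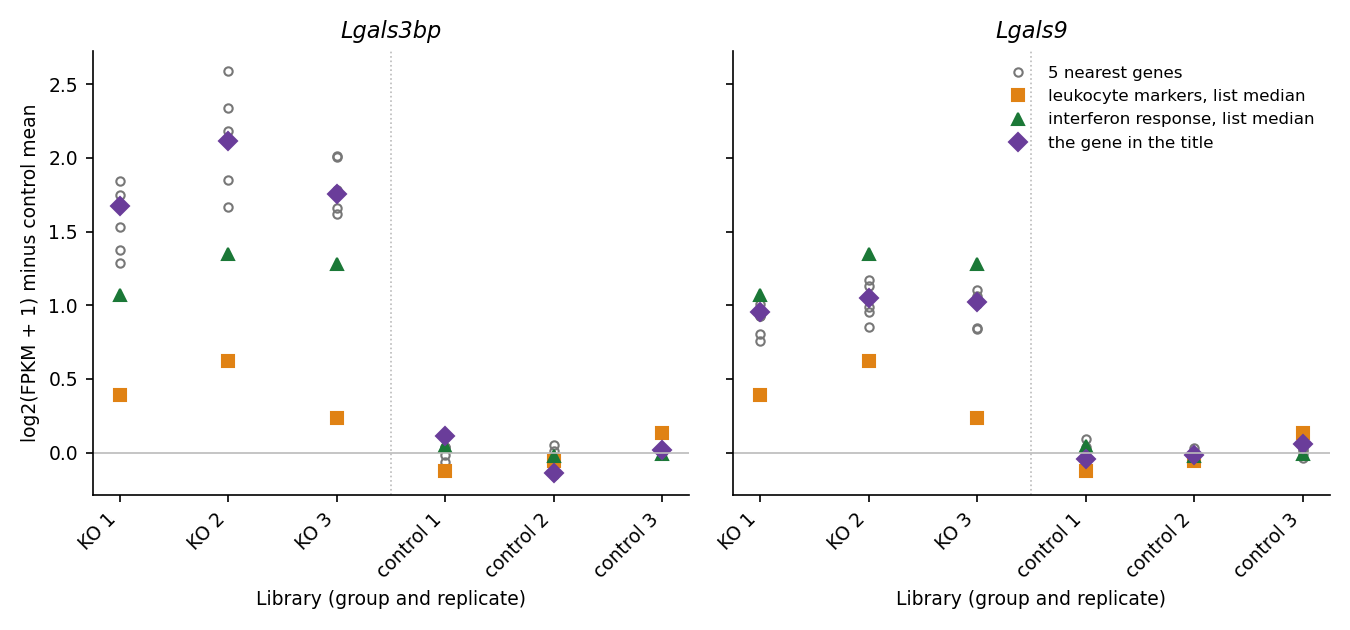
Log2(FPKM + 1) minus the control mean in each library for Lgals3bp (left) and Lgals9 (right), with the 5 nearest genes and the medians of the interferon response list and the leukocyte marker list. Lgals3bp lies between 1.67 and 2.12 and Lgals9 between 0.95 and 1.05 in the 3 KO libraries, and the leukocyte median lies lower in each of them.

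A list of interferon response genes and a list of leukocyte markers are given for the same libraries, both written with earlier results of these data known. Of 36 tested interferon response genes 26 were called higher in KO, 0 were called lower and 10 did not pass, beside 0.326% of all tested genes called higher. All 36 lay higher in all KO libraries than in all control libraries, beside 3.27% of all tested genes. All 36 also had an unadjusted p under 0.05 in limma, beside 4.01% of all tested genes. Some of these genes reached a mean of 1 FPKM only through the KO libraries. Oas1a, for example, averaged 4.70 FPKM in KO and 0.376 FPKM in control libraries. As the list was also written with this comparison known, nothing is read from these counts and shares. The list median was 1.24 on the log2 scale. Bst2, or tetherin, was at 52.1 ± 6.49 FPKM in KO and 8.39 ± 0.511 FPKM in control libraries (limma, adjusted p = 1.14e-04). Isg15, a ubiquitin-like protein, was at 22.4, 36.9 and 24.7 FPKM in KO replicates 1 to 3, against 1.05, 1.15 and 0.959 FPKM in control replicates 1 to 3 (limma, adjusted p = 1.16e-04). Ifi27 was at 50.9 ± 0.708 FPKM in KO and 20.6 ± 1.47 FPKM in control libraries, Oasl2 at 11.0 ± 1.38 FPKM in KO and 1.16 ± 0.322 FPKM in control libraries, and Rtp4 at 10.6 ± 0.667 FPKM in KO and 1.32 ± 0.515 FPKM in control libraries (limma, adjusted p = 3.10e-04, 3.40e-04 and 0.00100 for Ifi27, Oasl2 and Rtp4). Trim25, a ubiquitin ligase of antiviral signalling, was at 11.8 ± 0.775 FPKM in KO and 4.53 ± 0.436 FPKM in control libraries (limma, adjusted p = 0.00141). In KO replicates 1 to 3 the list median exceeded the control mean by 1.07, 1.34 and 1.28.

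Of 18 tested markers of macrophages and other leukocytes, cells known to carry Lgals3, Lgals9 and Lgals3bp, 0 were called in limma. Over all tested genes 0.326% were called higher and 0.0068% lower. Of these markers 17 had a log2 fold change above 0 and 13 had no overlap between groups, beside 3.27% of all tested genes. An unadjusted p under 0.05 was found for 13, beside 4.01% of all tested genes. The markers were listed with earlier results known, so nothing is read from these shares. The list median was 0.43, beside -0.02 over all tested genes. The 20 markers, none of which was at 0 in all libraries, summed to 161, 194 and 142 FPKM in KO replicates 1 to 3, against 103, 114 and 129.6 FPKM in control replicates 1 to 3. In KO replicates 1 to 3 their median exceeded the control mean by 0.39, 0.62 and 0.23 on the log2 scale. Lgals3bp exceeded its own control mean by 1.67, 2.12 and 1.76, and Lgals9 by 0.95, 1.05 and 1.02. The marker sum was highest in KO replicate 2, as Lgals3bp, Lgals9 and Lgals3 were. Among KO libraries, replicate 2 was also the highest for Lgals1, Lgals4 and Lgals7 and for the epithelial and skeletal muscle sums. Lgals2 and Lgals8 were lowest there. Nothing about leukocytes is read from this order. The macrophage lysozyme gene Lyz2 was at 15.6 ± 2.51 FPKM in KO and 8.73 ± 1.35 FPKM in control libraries, a ratio of 1.79, and did not pass (limma, adjusted p = 0.152). Adgre1, the macrophage antigen F4/80, was at 3.45 ± 0.412 FPKM in KO and 1.77 ± 0.360 FPKM in control libraries, a ratio of 1.95, and did not pass (limma, adjusted p = 0.160). Fcgr3, an Fc receptor, was at 6.39 ± 1.18 FPKM in KO and 3.42 ± 0.516 FPKM in control libraries, and C1qc, a complement subunit, at 14.49 ± 3.35 FPKM in KO and 8.62 ± 1.65 FPKM in control libraries (limma, adjusted p = 0.189 and 0.637 for Fcgr3 and C1qc). The part of leukocyte content in the members' differences was not tested.

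The next lists hold genes that make, cap or carry the sugars that galectins bind. Of 25 tested genes of N-glycan branching and lactosamine synthesis, 0 passed in limma, 4 had an unadjusted p under 0.05, beside 4.01% of all tested genes, and the median log2 fold change was -0.05. Those 4 were all lower in KO, without passing. Over all tested genes 0.326% were called higher and 0.0068% lower, so 0 called says little about a list of this size. B4galt3 was at 21.4 ± 0.645 FPKM in KO and 24.7 ± 0.860 FPKM in control libraries, and B4galt2 at 35.5 ± 3.02 FPKM in KO and 42.0 ± 1.53 FPKM in control libraries. B4galt1 was at 26.1 ± 0.687 FPKM in KO and 29.2 ± 1.39 FPKM in control libraries (limma, adjusted p = 0.942, 0.970 and 1.00 for B4galt3, B4galt2 and B4galt1). These are galactosyltransferases that build lactosamine, a ligand of galectins. B3gnt9 was at 14.9 ± 1.12 FPKM in KO and 17.2 ± 1.26 FPKM in control libraries. Mgat5, the branching enzyme best known for making galectin-3 ligands and named after its values were seen, was at 6.11 ± 0.243 FPKM in KO and 6.80 ± 0.128 FPKM in control libraries.

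Of 13 genes that add, supply or remove sialic acid, which can block galectin binding, 0 passed and 0 had an unadjusted p under 0.05 in limma, with a median of -0.05. The shares over all tested genes were 0.326% called higher, 0.0068% called lower and 4.01% with an unadjusted p under 0.05. St3gal3 was at 11.5 ± 1.29 FPKM in KO and 13.1 ± 0.238 FPKM in control libraries, and St3gal6 at 2.81 ± 0.195 FPKM in KO and 2.33 ± 0.225 FPKM in control libraries. St3gal1 was at 16.8 ± 1.84 FPKM in KO and 19.2 ± 1.25 FPKM in control libraries, and St3gal4 at 16.1 ± 0.610 FPKM in KO and 17.4 ± 0.354 FPKM in control libraries. St6gal1, whose product masks galectin-1 ligands and which was named after its values were seen, was at 8.07 ± 1.53 FPKM in KO and 8.12 ± 0.441 FPKM in control libraries.

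Of 37 tested glycoprotein ligands and receptors, 0 passed and 0 had an unadjusted p under 0.05 in limma, with a median of 0.0021. Among all tested genes 0.326% were called higher, 0.0068% were called lower and 4.01% had an unadjusted p under 0.05. Cd44, a hyaluronan receptor, was at 14.9 ± 0.457 FPKM in KO and 13.8 ± 0.508 FPKM in control libraries. Lamp1, a lysosomal membrane protein rich in lactosamine, was at 98.6 ± 2.19 FPKM in KO and 104.6 ± 7.98 FPKM in control libraries. Cd82 was at 18.3 ± 2.20 FPKM in KO and 19.5 ± 1.21 FPKM in control libraries, and Tgfbr2 at 14.3 ± 1.67 FPKM in KO and 15.3 ± 1.29 FPKM in control libraries. The receptor of galectin-9, Havcr2 or Tim-3, had a mean under 1 FPKM and was not tested, at 0.223 ± 0.0238 FPKM in KO and 0.177 ± 0.0326 FPKM in control libraries. Ptprc, the leukocyte antigen CD45, was not tested either, at 1.07 ± 0.205 FPKM in KO and 0.579 ± 0.1404 FPKM in control libraries. Havcr2 and Ptprc were named after their values were seen.

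Of 22 tested genes of the response to damaged lysosomes, in which galectins 3 and 8 act as sensors, 0 passed and 0 had an unadjusted p under 0.05 in limma. Over all tested genes 0.326% were called higher, 0.0068% were called lower and 4.01% had an unadjusted p under 0.05. Their median was -0.0023. Optn, an autophagy receptor, was at 2.04 ± 0.190 FPKM in KO and 2.52 ± 0.371 FPKM in control libraries, and Mcoln1, a lysosomal calcium channel, at 22.5 ± 1.16 FPKM in KO and 24.3 ± 1.20 FPKM in control libraries. Ubxn6 was at 12.2 ± 0.776 FPKM in KO and 13.4 ± 0.609 FPKM in control libraries, and Ube2ql1 at 1.598 ± 0.379 FPKM in KO and 1.98 ± 0.197 FPKM in control libraries. Of the galectin-related genes outside the members, Lgalsl was at 13.0 ± 0.790 FPKM in KO and 12.7 ± 1.37 FPKM in control libraries and did not pass (limma, adjusted p = 1.00). Lgals12 was at 0.650 ± 0.110 FPKM in KO and 0.675 ± 0.164 FPKM in control libraries and was not tested. Grifin, a lens galectin relative, was listed at 0 in all libraries except KO replicate 3, at 0.186 FPKM. Lgals12 and Grifin were named after their values were seen.

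**Figure D4:**
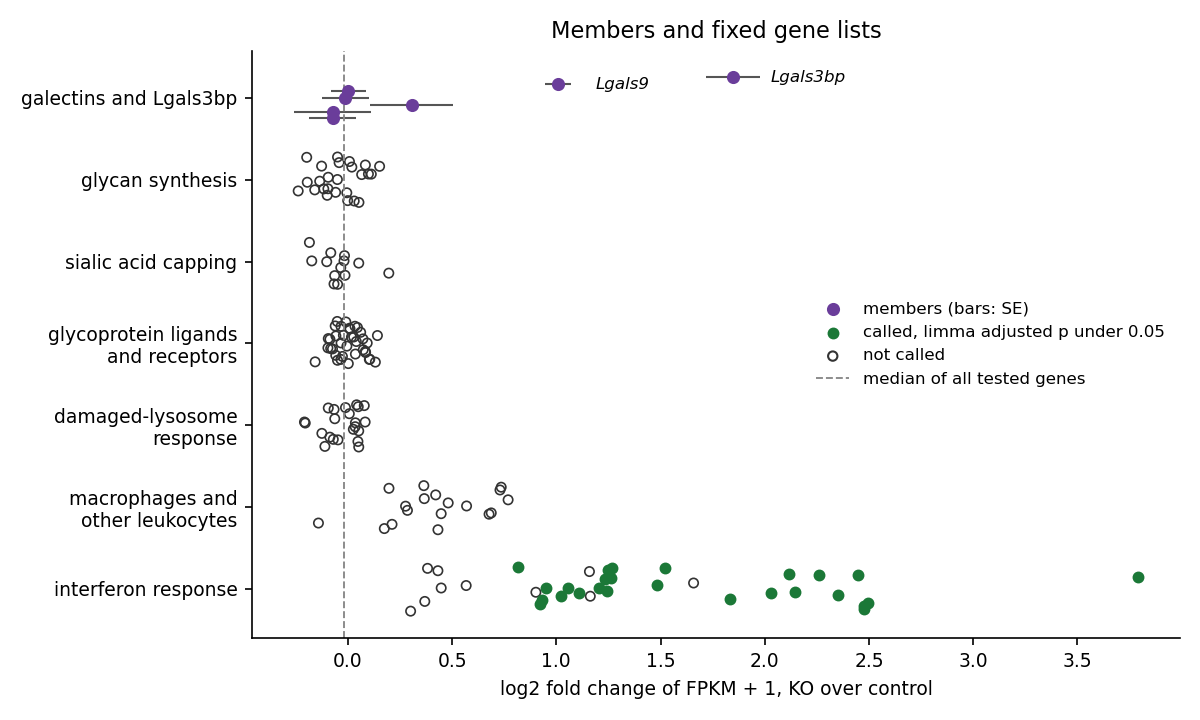
Log2 fold change of FPKM + 1, KO over control, for the 7 tested members (with SE) and for the tested genes of each list. List genes are filled where called, and all members are filled whether called or not. Lgals9 and Lgals3bp lie within the range of the interferon response genes, and the glycan, ligand and lysosome lists lie around the dashed median of all tested genes.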

How the data were processed

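Total RNA of palatal shelves of E14.5 mouse embryos was sequenced in 3 KO and 3 control libraries. The authors deposited FPKM, fragments per gene corrected for length and library size, for 55631 Ensembl IDs and only the table's name gives the unit. Per the submitters' processing notes, the build was mm10 and DESeq2 version 1.5.2 was used. For the aligner, counter, annotation and strand setting, nothing is given in the sources used here. Depth is unknown, so no counting interval is given.

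Libraries were grouped by their titles, and columns were matched to them by the library names in the labels. Symbols and positions come from GENCODE M21 on GRCm38, where 50824 IDs matched and 4807 did not. Promoters come from RefSeq on GRCm38.p6.

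Genes averaging 1 FPKM or more were put on the log2(FPKM + 1) scale and fitted with limma (version 3.58.1, R version 4.3.3). Genotype was the only term, with lmFit, eBayes with a trend, two-sided tests, Benjamini-Hochberg adjustment over all 14714 tested genes and a threshold of 0.05. The pseudocount understates fold changes of low genes. The members and all lists were chosen with earlier results of these data known. All members are named, and from each gene list and the leukocyte markers the called genes (at most 6, by p), filled up to 4 by smallest p. For Lgals3bp and Lgals9 the 5 nearest genes by profile are named, skipping predicted genes, Rik genes and pseudogenes. All other genes with values, such as neighbouring, overlapping and sex-linked genes, were named after their values were seen.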

Additional observations from a re-analysis of the deposited data

How the results depend on the processing

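The log2 fold changes of the 7 tested members and the called counts over all genes were recomputed under 16 alternatives. The counts and medians of the gene lists and of the leukocyte markers were recomputed as well, which gave 478 values. A turn in direction was counted only for the called members, Lgals9 and Lgals3bp, and did not occur. Among members not called, Lgals1 ran from -0.17 to 0.01 and Lgals7 from -0.35 to 0.10. Lgals4 ran from -0.10 to 0.06, Lgals8 from -0.07 to 0.05 and Lgals3 from 0.15 to 0.52. Lgals3 and Lgals4 had no value with a filter at a mean of 5 FPKM, and Lgals2 had one with no filter alone. Sums of FPKM, shares, profile distances, neighbouring genes and the other marker lists were not recomputed. Lgals9 and Lgals3bp were called higher in KO under all 16, with log2 fold changes between 0.98 and 1.08 for Lgals9 and between 1.71 and 2.06 for Lgals3bp. The Lgals9 value was 1.07 with a pseudocount of 0.1 and 1.08 after rescaling to TPM, and that of Lgals3bp was 2.06 with a pseudocount of 0.1. No other member and no gene of the glycan, sialic acid, ligand, lysosome and leukocyte lists was called under the alternatives in which it had a value. A filter at a mean of 5 FPKM tests fewer genes and left 24 genes higher and 0 lower, with 14 interferon response genes called higher. With no filter 2 genes were lower. Leaving out 1 library gave between 32 and 48 higher and between 1 and 2 lower genes. The interferon response median was 1.69 with a pseudocount of 0.1 and 1.43 after rescaling to TPM. The sialic acid median was -0.10 with library weights and between -0.10 and -0.0225 with 1 library left out. The lysosome median, close to 0, was 0.0166 with a filter at 5 FPKM, 0.0253 with quantile normalization, 0.0175 with median-of-ratios scaling, 0.0292 after rescaling to TPM and -0.0291 with library weights, and between -0.0558 and 0.0046 with 1 library left out. The cause of these shifts was not tested. With the replicate number as a block, 41 genes were higher and 1 lower, with 23 interferon response genes among the higher ones, and the fold changes were unchanged by construction. Deviations of same-numbered libraries correlated at 0.019, 0.305 and -0.241 across genes, and those of differently numbered libraries between -0.284 and 0.314. Litters are not named in the labels, so whether the numbers pair the libraries cannot be told from these values. Low galectins such as Lgals2 are limited by a depth that is unknown.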
